A study of Mus musculus with 16 samples.

Results

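The 10 genes described here carry out or control melanin synthesis: the enzymes Tyr, Tyrp1 and Dct, the melanosome proteins Pmel and Mlana, the transporters Oca2, Slc45a2 and Slc24a5, the receptor Gpr143 and the transcription factor Mitf. They were chosen by symbol, as 10 of the 54532 genes of an RNA sequencing table of whole mouse retinas, and 8 of the 10 passed the filter on low expression. The retinas came from 12-day-old mice of the BALBc and C57 strains, which as background are an albino and a pigmented strain. Hyperoxia mice stayed in room air until day 7 and then breathed 75% oxygen until day 12, which closes off retinal capillaries in this model of retinopathy, whereas normoxia mice breathed room air throughout. Each of the 4 groups, C57 normoxia, C57 hyperoxia, BALBc normoxia and BALBc hyperoxia, held 4 libraries, and the labels name no transgene or drug. The study set a strain that resists this retinopathy against one that is susceptible, without the labels saying which is which. Whether each library is a different animal is not stated, so the spread behind every p-value is that between libraries and may be technical in part. The sex markers Xist and Ddx3y, given further on, were high in different libraries of each group except C57 hyperoxia. The libraries of those groups were thus not all from the same animal.

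Melanin is made inside melanosomes, on fibrils of Pmel, by tyrosinase and its relatives. In the eye it is made by the retinal pigment epithelium, a sheet behind the photoreceptors, and by melanocytes of neural crest origin in the choroid and iris; the neural retina itself makes none. BALBc mice lack pigment because of a coding change that inactivates tyrosinase, and they also carry the brown coding allele of Tyrp1. All 10 transcripts were detected in every library of both strains. Levels were compared by limma, a linear model, on log2(FPKM + 0.5).

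Mitf is a basic helix-loop-helix factor known to bind CATGTG and CACGTG, and pigment genes are known for an extended form, TCATGTG. These letters were looked up in RefSeq promoter windows of GRCm38.p6, which run from 250 bases before each gene's start to 50 bases after it, because 9 of the 10 genes moved together across libraries as shown further on. Windows were matched for 6 of the 10 genes, Tyr, Tyrp1, Dct, Oca2, Slc24a5 and Mitf, which had 8 windows. CATGTG, on either strand, was in 5 of the 8 windows, against 14.2% of 32851 windows of all genes. By gene it was in 5 of the 6, all but Mitf. TCATGTG, which contains CATGTG, was in 4 of the 8 windows, against 3.77% of all windows. Those 4 belonged to Tyr, Tyrp1, Dct and Slc24a5, and Slc24a5 is the gene that did not move with the other 9. CACGTG (7.15% of all windows) and TCACGTG (3.77%) were in 0 of the 8 windows. A match is a description of letters, not a binding site. The 6 matches are given on the strand of the gene, 5′ to 3′, with the motif in capitals (CACATG is CATGTG read from the other strand) and 12 bases on each side.
Tyr, chr7:87493516-87493545, minus strand: gaaaaagttagtCATGTGctttgcagaaga
Tyrp1, chr4:80834155-80834184, plus strand: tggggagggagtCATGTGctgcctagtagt
Dct, nearer match, chr14:118052379-118052408, minus strand: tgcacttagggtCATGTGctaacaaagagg
Dct, farther match, chr14:118052461-118052490, minus strand: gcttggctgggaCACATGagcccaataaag
Oca2, chr7:56239561-56239590, plus strand: ttgagcttgctaCACATGgctggaattttc
Slc24a5, chr2:125068102-125068131, plus strand: aaggagactgctCACATGattcagcataag
The first base of the motif lay 21 bases before the start of Tyr, 46 before that of Tyrp1, 150 and 232 before that of Dct, 186 before that of Oca2 and 13 before that of Slc24a5, counted from the RefSeq start of each window. For Tyrp1 that start lies inside the gene span given further on, which is GENCODE's and begins at 80834123, so the Tyrp1 match lies within that span and the other 5 matches lie outside theirs. In the 3 enzyme genes the match nearer the start was read in the same direction as the gene, and in Oca2 and Slc24a5 in the opposite direction. The 250 bases before the start of Tyr, the tyrosinase gene, are shown whole as the longer context of its match.
Tyr, chr7:87493513-87493762, minus strand: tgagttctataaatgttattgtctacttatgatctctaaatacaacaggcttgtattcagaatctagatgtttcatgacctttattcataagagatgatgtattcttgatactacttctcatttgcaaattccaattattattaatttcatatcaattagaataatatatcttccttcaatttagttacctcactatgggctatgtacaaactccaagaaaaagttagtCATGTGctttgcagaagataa

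Expression was deposited as FPKM, fragments per kilobase of gene and per M (mega) fragments of the library, which compares genes per length. The reads behind each library, recovered from the smallest steps of its values, numbered 16.7 M to 29.7 M. The recovered reads divided by the library size implied by the steps were 0.884 and 0.887 in C57 normoxia libraries 1 and 2 and 1.15 and 1.13 in BALBc hyperoxia libraries 2 and 3, the libraries that stand apart below. Within a library, ratios of genes do not depend on that size. Of all 14953 genes tested, limma called 2257 higher and 2085 lower in BALBc over both oxygen conditions, and 1227 higher and 2737 lower after rescaling to TPM, which lowered the median difference of all genes by 0.11 (log2). In hyperoxia the split was 1769 and 1611, against 941 and 2053 after that rescaling. Rod genes varied within groups: the rod transducin gene Gnat1 was between 476 and 2924 FPKM in C57 normoxia and between 608 and 2804 FPKM in BALBc hyperoxia; the part of this in the results was not tested.

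Levels of the 10 genes spanned a wide range, in nearly the same order in each library. Pmel, the fibril protein, was the most abundant, with a median of 25.9 FPKM over the 16 libraries and a range from 15.7 to 76.6 FPKM. Dct (median 16.3 FPKM) and Tyrp1 (9.56 FPKM) followed, and Pmel was above Dct, and Dct above Tyrp1, in 16 of 16 libraries. Slc24a5 had a median of 3.51 FPKM, Mlana of 2.11 FPKM and Tyr of 1.52 FPKM, each above the next gene in 13 to 16 libraries. Tyrosinase, the rate-limiting enzyme, was thus the least abundant of the 3 enzymes. Oca2 (median 1.01 FPKM) and Mitf (0.972 FPKM) did not separate, Oca2 being the higher in 9 libraries, and neither did Gpr143 (0.507 FPKM) and Slc45a2 (0.442 FPKM), Gpr143 being the higher in 9. Gpr143 and Slc45a2 reached 1 FPKM in 2 and 1 libraries, and were the 2 genes below the filter of 1 FPKM in at least 4 libraries. Recovered reads ran from 814 to 5259 for Dct, but from 9 to 68 for Mlana, 14 to 71 for Slc45a2 and 5 to 61 for Gpr143, so the counting error of the last 3 is large. For Mlana the 1057 annotated exon bases gave no whole reads. Its reads rest on 623 bases, the smallest length found that did, and a multiple of that length would give more reads.

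**Figure D1:**
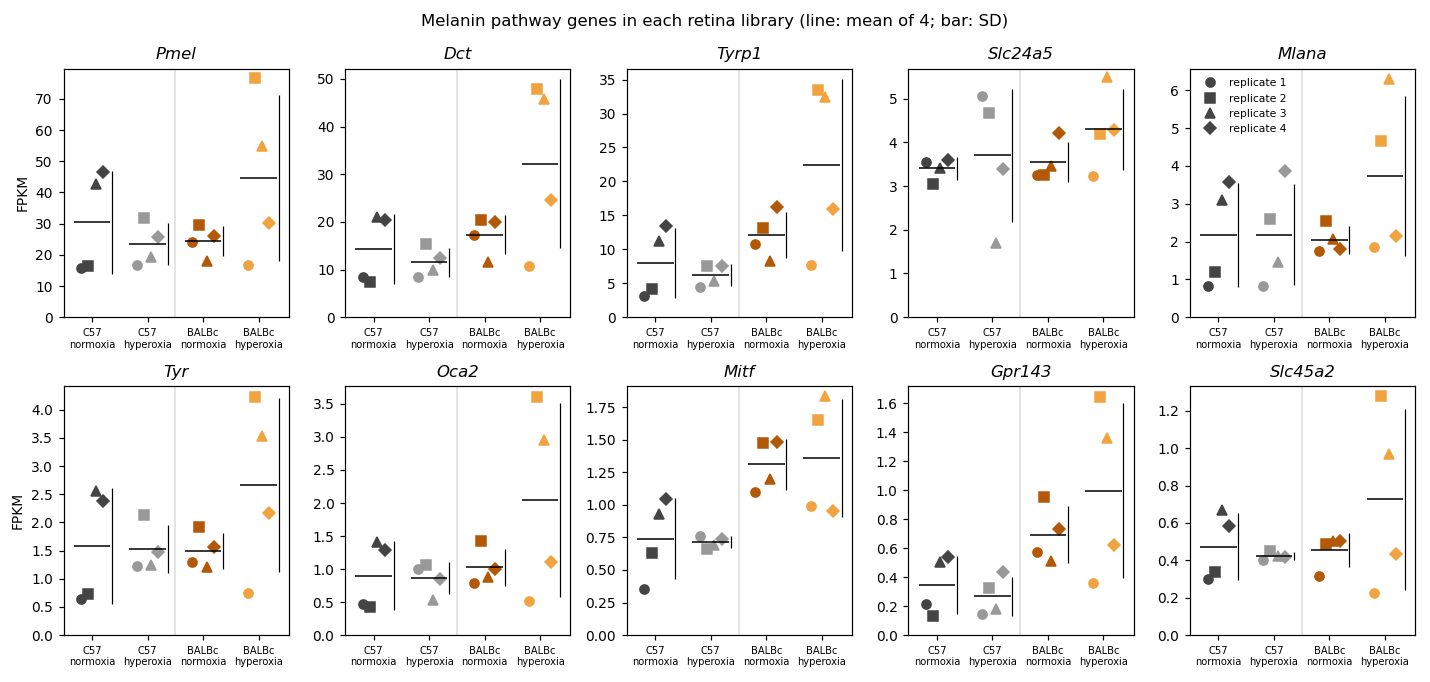
FPKM of each of the 10 genes (vertical axes, linear, starting at 0) in the 4 groups, one point per library with the replicate number as its shape, the mean of 4 as a line and the SD as a bar. BALBc hyperoxia libraries 2 and 3 stand above the rest for most genes, and C57 normoxia libraries 1 and 2 stand below libraries 3 and 4 of their group for all genes except Slc24a5.

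Tyrosinase mRNA was present in the albino retinas at levels that overlapped those of the pigmented ones. Tyr (ENSMUSG00000004651, GRCm38 chromosome 7, 87424771 to 87493512, minus strand) was at 0.647, 0.726, 2.55 and 2.38 FPKM in C57 normoxia libraries 1 to 4, and at 1.29, 1.92, 1.21 and 1.56 FPKM in BALBc normoxia. In hyperoxia it was at 1.23, 2.14, 1.25 and 1.47 FPKM in C57 and at 0.744, 4.23, 3.53 and 2.16 FPKM in BALBc. The strains overlapped in both oxygen conditions, and BALBc hyperoxia held the highest libraries of all. C57 libraries averaged 1.55 ± 0.730 FPKM and BALBc libraries 2.08 ± 1.21 FPKM (SD, n = 8 each), a log2 difference of 0.29 (SE 0.27, limma adjusted p = 0.464). A p above the threshold does not show that the level was the same in both strains.

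Tyrp1 (ENSMUSG00000005994, chromosome 4, 80834123 to 80851719, plus strand), whose protein acts after tyrosinase and stabilises it, was higher in BALBc. It was at 3.13, 4.08, 11.3 and 13.4 FPKM in C57 normoxia and at 10.8, 13.2, 8.29 and 16.2 FPKM in BALBc normoxia, where the groups overlapped. In hyperoxia it was at 4.45, 7.54, 5.30 and 7.53 FPKM in C57 and at 7.63, 33.4, 32.4 and 16 FPKM in BALBc, and the lowest BALBc library lay just above the highest C57 library. Over both oxygen conditions the means were 7.08 ± 3.63 and 17.2 ± 10.2 FPKM (SD, n = 8 each), with a log2 difference of 1.18 (SE 0.33, limma adjusted p = 0.0145).

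Dct (ENSMUSG00000022129, chromosome 14, 118012790 to 118052244, minus strand), dopachrome tautomerase, showed the same pattern with a smaller difference. It was at 8.52, 7.35, 21 and 20.5 FPKM in C57 normoxia and at 17.3, 20.4, 11.6 and 19.9 FPKM in BALBc normoxia. In hyperoxia it was at 8.42, 15.3, 9.94 and 12.5 FPKM in C57 and at 10.8, 47.9, 45.8 and 24.5 FPKM in BALBc. BALBc hyperoxia library 1 lay inside the C57 range, and the other 3 lay above it. Over both oxygen conditions the log2 difference was 0.82 (SE 0.30, limma adjusted p = 0.0519), just short of the threshold of 0.05; it was 0.84 (adjusted p = 0.0378) by limma voom on the recovered reads.

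Of the 8 tested genes, 2 passed the threshold over both oxygen conditions, Tyrp1 and Mitf, both higher in BALBc. Of all tested genes 29% passed, 15.1% as higher. Mitf reached 1 FPKM in 7 libraries, in C57 only in normoxia library 4, so it met the expression filter only through its BALBc levels. All 8 differences were above 0, with a median of 0.41 against 0.01 for all tested genes. In normoxia 0 of the 8 passed by limma (9.08% of all genes) and 0 by limma voom; 1 of the 8, Mitf, had an unadjusted p under 0.05, as had 22.9% of all genes. In hyperoxia 2 of the 8 passed, Tyrp1 with a log2 difference of 1.58 (SE 0.46, adjusted p = 0.0236) and Dct with 1.26 (SE 0.43, adjusted p = 0.0443), both higher in BALBc, against 22.6% of all genes (11.8% as higher). The counts depended on BALBc hyperoxia libraries 2 and 3: without both of them, a choice made after seeing the values, 0 of the 8 passed in either comparison, with log2 differences over both oxygen conditions of 0.79 for Tyrp1 (adjusted p = 0.0837) and 0.43 for Mitf (adjusted p = 0.0554). Without C57 normoxia libraries 1 and 2 only Mitf passed over both conditions (adjusted p = 0.0460), with Tyrp1 at 0.76 (adjusted p = 0.0898).

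The structural proteins and the transporters did not pass in any comparison between the strains. Pmel (ENSMUSG00000025359, chromosome 10, 128704195 to 128720238, plus strand) was at 15.7, 16.4, 42.8 and 46.5 FPKM in C57 normoxia and at 24.0, 29.5, 18.1 and 26.2 FPKM in BALBc normoxia. In hyperoxia it was at 16.7, 31.8, 19.5 and 25.7 FPKM in C57 and at 16.6, 76.6, 54.8 and 30.2 FPKM in BALBc. The BALBc range thus enclosed the C57 range in hyperoxia and lay within it in normoxia, and the log2 difference over both was 0.29 (SE 0.30, limma adjusted p = 0.508). Pmel shares 34 exon bases with Cdk2 and 105 with Dgka, of 2292, on the opposite strand. Mlana, a melanosome membrane protein that escorts Pmel, ranged from 0.822 to 3.86 FPKM in C57 and from 1.76 to 6.30 FPKM in BALBc (log2 difference 0.37, adjusted p = 0.386).

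Oca2, an anion channel protein that raises melanosome pH, ranged from 0.430 to 1.41 FPKM in C57 and from 0.522 to 3.60 FPKM in BALBc (log2 difference 0.45, SE 0.27, limma adjusted p = 0.223). Slc24a5, a cation exchanger of the melanosome pathway, ranged from 1.70 to 5.05 FPKM in C57 and from 3.24 to 5.50 FPKM in BALBc (0.15, SE 0.16, adjusted p = 0.509). Of its 2330 exon bases, 921 overlap exons of Myef2 on the opposite strand, a gene at 14.0 to 24.9 FPKM. Whether counting used strand is not given in the sources used here, so reads there cannot be assigned with certainty to either gene. Slc45a2, a transporter that also acts on melanosome pH, ranged from 0.303 to 0.670 FPKM in C57 and from 0.226 to 1.28 FPKM in BALBc, a log2 difference of 0.15 (exact two-sided permutation test, unadjusted p = 0.387, n = 8 each).

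Mean levels of Gpr143 and Mitf were higher in BALBc, though Gpr143 was below the filter and Mitf met it only through its BALBc levels. Gpr143 (ENSMUSG00000025333, chromosome X, 152781921 to 152808646, plus strand), the melanosomal receptor mutated in ocular albinism, was at 0.215, 0.133, 0.501 and 0.536 FPKM in C57 normoxia and at 0.575, 0.953, 0.512 and 0.730 FPKM in BALBc normoxia. In hyperoxia it was at 0.143, 0.324, 0.178 and 0.434 FPKM in C57 and at 0.361, 1.64, 1.36 and 0.624 FPKM in BALBc. In each oxygen condition only the lowest BALBc library lay inside the C57 range. Over both the log2 difference was 0.70 (exact two-sided permutation test, unadjusted p = 0.00202, n = 8 each, 1 of 6 such tests on the 2 genes below the filter); within each oxygen condition p was 0.0571 (n = 4 each, smallest possible 0.0286). Gpr143 is X-linked, and Xist was at 10 FPKM or more in 1 C57 normoxia, 4 C57 hyperoxia, 2 BALBc normoxia and 3 BALBc hyperoxia libraries. The male marker Ddx3y was so in 3, 0, 2 and 1 libraries of these groups. The part of sex in the result was not tested.

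Mitf (ENSMUSG00000035158, chromosome 6, 97807052 to 98021349, plus strand), the transcription factor of pigment cells, was at 0.354, 0.627, 0.932 and 1.04 FPKM in C57 normoxia and at 1.09, 1.48, 1.2 and 1.48 FPKM in BALBc normoxia. In hyperoxia it was at 0.762, 0.661, 0.689 and 0.737 FPKM in C57 and at 0.993, 1.65, 1.83 and 0.950 FPKM in BALBc. The strains did not overlap within either oxygen condition, as for 18% of all tested genes in normoxia and 21.4% in hyperoxia. The log2 difference was 0.58 over both conditions (SE 0.15, limma adjusted p = 0.00837), 0.58 in normoxia (adjusted p = 0.0994) and 0.58 in hyperoxia (adjusted p = 0.0552). Its size was thus alike in both conditions, whereas for Tyrp1 and Dct it was larger in hyperoxia, though the test of that difference passed for 0 of all genes by limma.

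**Figure D2:**
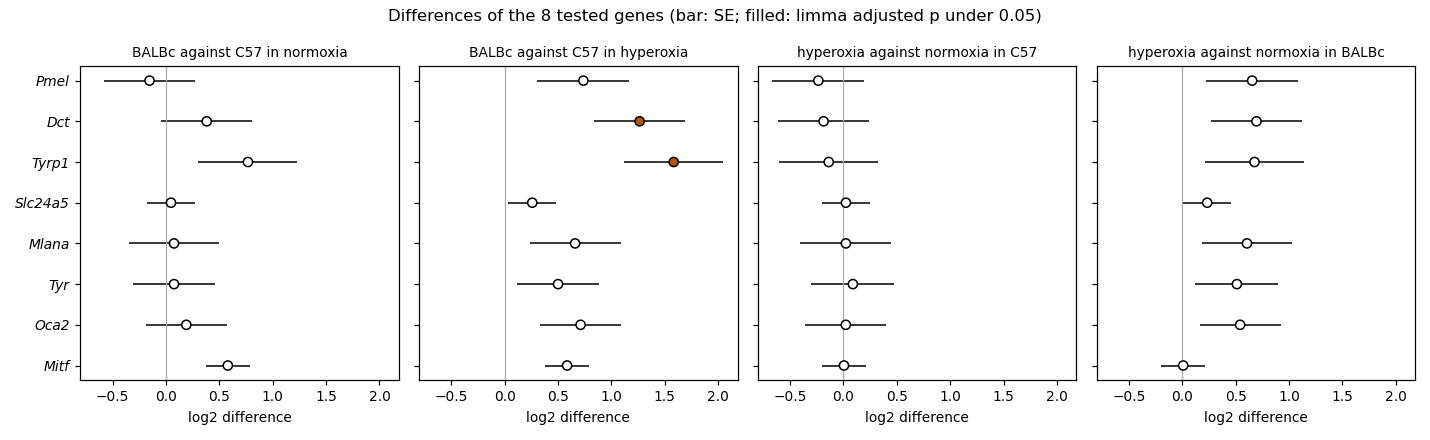
Log2 differences (horizontal axes) of the 8 genes that passed the filter, from limma on log2(FPKM + 0.5), for the strains in each oxygen condition and for hyperoxia in each strain, with the SE as bars. Filled points mark an adjusted p under 0.05, which Tyrp1 and Dct reach between the strains in hyperoxia and which no gene reaches in the other 3 panels.

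No tested member passed between hyperoxia and normoxia in either strain. The C57 oxygen groups also differed in sex markers. Xist was at 10 FPKM or more in 1 normoxia and 4 hyperoxia libraries, and Ddx3y in 3 and 0. The part of sex in that comparison was not tested. In C57 the 8 differences ran from -0.24 for Pmel to 0.09 for Tyr (median 0.01), and 0 of 8 passed, against 0.334% of all genes; 0 of 8 had an unadjusted p under 0.05 (13.3% of all genes) and 0 passed by limma voom. For all genes the split in C57 was 16 higher and 34 lower, and 7 higher and 45 lower after rescaling to TPM. In BALBc all 8 differences were above 0, with a median of 0.57 against -0.0048 for all genes, a median that rescaling to TPM lowered by 0.14, and Dct had the largest at 0.70 (SE 0.43, adjusted p = 0.493). Of the 8, 0 passed in BALBc by limma or by limma voom, and 0 had an unadjusted p under 0.05. Of all genes 0.161% passed and 14.2% had an unadjusted p under 0.05. The BALBc values rested on libraries 2 and 3 of the hyperoxia group: without them the difference was -0.05 for Dct, -0.09 for Tyrp1 and -0.10 for Pmel. The difference between the strains' responses, for which 0% of all genes passed and 9.56% had an unadjusted p under 0.05, was 0.88 for Dct (SE 0.60, adjusted p = 0.664) and 0.89 for Pmel (SE 0.61, adjusted p = 0.664), and 0 of the 8 passed by limma or limma voom, with 0 at an unadjusted p under 0.05.

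The spread within groups was shared by the members. In C57 normoxia all 10 genes were lowest in library 1 or 2 and highest in library 3 or 4. In BALBc hyperoxia library 2 was the highest for 7 genes and library 3 for the other 3, whereas library 1 was the lowest for 9. Summed over the 10 genes, the level was 33.8, 34.3, 87.7 and 93.4 FPKM in C57 normoxia and 43.0, 179, 155 and 82.4 FPKM in BALBc hyperoxia. It ran from 39.0 to 66.5 FPKM in C57 hyperoxia and from 47.8 to 75.2 FPKM in BALBc normoxia, which held no library as far from its group.

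Over the 16 libraries, 9 of the 10 genes followed the mean of the other members closely. As a description over libraries that share depth and dissection, Pearson's r with that mean was 0.97 for Dct, 0.95 for Tyrp1 and Oca2, 0.93 for Tyr and Pmel, 0.92 for Gpr143, 0.88 for Slc45a2, 0.84 for Mlana and 0.79 for Mitf. Slc24a5 stood apart at 0.44, and its r with Myef2, with which it shares exon bases, was 0.19. With group means removed the values were between 0.82 and 0.98 for the same 9 genes and 0.33 for Slc24a5. The r with the rod gene Gnat1 was between 0.61 and 0.78 for the same 9 genes and 0.24 for Slc24a5.

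**Figure D3:**
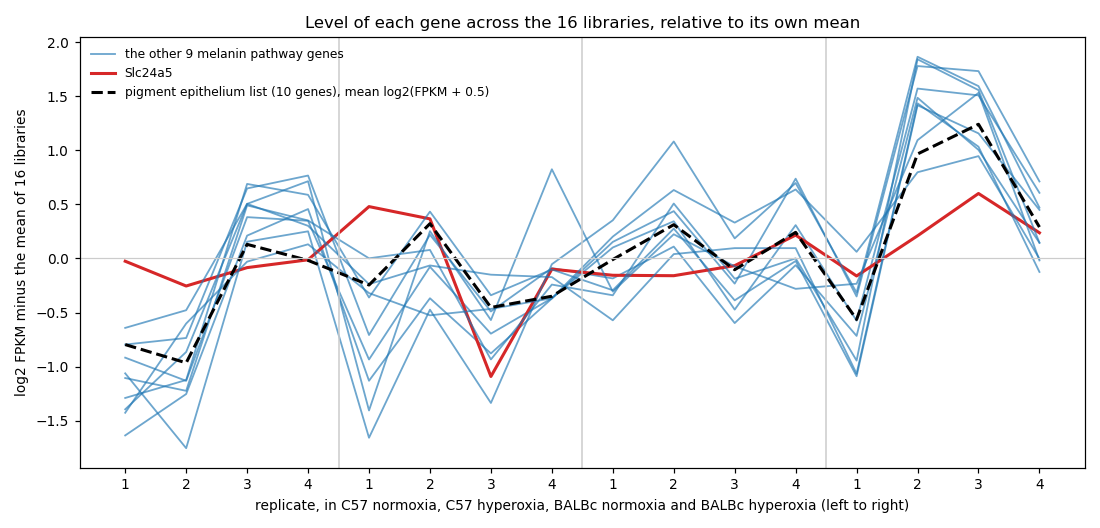
Level of each gene in each of the 16 libraries as log2 FPKM minus its own mean over the libraries (vertical axis), in the order C57 normoxia, C57 hyperoxia, BALBc normoxia and BALBc hyperoxia, with the mean of the 10 pigment epithelium markers as a dashed line. Apart from Slc24a5 (red), the genes are highest of all in BALBc hyperoxia libraries 2 and 3, and are lower in C57 normoxia libraries 1 and 2 than in libraries 3 and 4, though for Slc45a2, Mlana, Gpr143 and Dct 1 of the 2 lowest libraries of all 16 is in another group.

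The pigment epithelium markers moved with the members, library by library. The list held 10 genes, none of them a member (Rpe65, Lrat, Rgr, Rdh5, Best1, Slc16a8, Stra6, Ttr, Rrh and Ermn), and their summed level was 72.6, 63.8, 197 and 170 FPKM in C57 normoxia and 81.5, 339, 430 and 169 FPKM in BALBc hyperoxia. It was between 114 and 196 FPKM in C57 hyperoxia and between 127 and 182 FPKM in BALBc normoxia. Best1 was listed at 0 in 3 libraries of each BALBc group, and no other gene of the list was at 0. The r of each member with the mean of the list ran from 0.76 for Mlana to 0.94 for Dct, with Slc24a5 at 0.57. In whole retina, more cells of a type and more RNA per cell cannot be told apart. The labels give the tissue only as retina. In a limma fit with the list's mean as a covariate, Tyrp1 had a log2 difference of 0.42 over both oxygen conditions (adjusted p = 0.0977). Mitf had one of 0.35 (adjusted p = 0.0850) and Dct of 0.10 (adjusted p = 0.601), and Tyr passed in the other direction at -0.36 (adjusted p = 0.0465). Genes of the list also differed between the strains, as given next. This fit therefore takes out strain difference shared with the list. Its values are not strain differences freed of pigment epithelium content. Of the list itself 9 genes were tested, and 4 were higher in BALBc over both conditions, against 15.1% of all genes: Rpe65, the retinoid isomerase, by 1.67 (SE 0.40, adjusted p = 0.00607), Rgr by 1.41, Rdh5 by 1.09 and Ermn by 0.79. None of the 9 was lower. In normoxia 0 of the 9 passed (9.08% of all genes), and in hyperoxia 3 were higher (11.8% of all genes). Best1, which was not tested, tended the other way with overlap. Its level was 0.00201 to 0.0332 of that of Pmel in C57 and 0 to 0.00517 in BALBc.

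Markers of neural crest cells, which would include choroidal melanocytes, were also highest in BALBc hyperoxia libraries 2 and 3, over a narrower range. The 6 genes Sox10, Pax3, Kit, Ednrb, Mc1r and Mbp summed to 9.95, 10.3, 11.4 and 11.4 FPKM in C57 normoxia and to 9.73, 12.9, 13.6 and 9.93 FPKM in BALBc hyperoxia, whose libraries 2 and 3 had the highest sums of all 16. The sums ran from 9.15 to 11.9 FPKM in C57 hyperoxia and from 10.2 to 12.2 FPKM in BALBc normoxia, and Pax3 was at 0 or at most 0.0434 FPKM. The part of these cells in the members' levels was not tested. Of the 4 tested, Mbp was lower in BALBc over both conditions (-0.25, SE 0.06, limma adjusted p = 0.0103) and 0 were higher, against 29% of all genes called in either direction. Ciliary markers (5 tested) did not pass over both conditions, but in hyperoxia Wfdc1 (-1.57), Zic1 (-1.31) and Zic2 (-1.03) were lower in BALBc (adjusted p = 0.0110, 0.0110 and 0.0413), 3 of 5 against 22.6% of all genes in either direction. In hyperoxia their summed level was 18 to 22.8 FPKM in BALBc and 29.3 to 36.9 FPKM in C57, opposite to the pigment genes. In normoxia the differences of all 5 were above 0 (median 0.29), as were those of 7 of the 8 tested members (median 0.13). There 0 of the 5 passed by limma, and the summed levels of the strains overlapped. Lens genes ranged from 2.48 to 4466 FPKM in sum in C57 hyperoxia, with 0 of 9 called between the strains by limma and 0 at an unadjusted p under 0.05 over both conditions. The 1 tested fibroblast gene, Col1a2, did not pass over both conditions (0.20, limma adjusted p = 0.266). Of 8 rod genes 2 were higher in BALBc over both conditions, Sag (0.77) and Nr2e3 (0.35), against 15.1% of all genes. Of 7 bipolar genes 0 passed over both conditions by limma, with 2 at an unadjusted p under 0.05.

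Ratios to Pmel within each library separated the strains without overlap for 3 genes. These ratios were added after the levels had been seen, for the 9 other genes, in 27 strain tests and 18 oxygen tests, with unadjusted p-values from exact two-sided permutation tests of log2 ratios. Tyrp1 over Pmel was 0.199, 0.249, 0.263 and 0.287 in C57 normoxia and 0.450, 0.447, 0.459 and 0.620 in BALBc normoxia. It was 0.266, 0.237, 0.272 and 0.293 in C57 hyperoxia and 0.459, 0.437, 0.591 and 0.528 in BALBc hyperoxia. Every BALBc library lay above every C57 library, with no overlap, and libraries 2 and 3 of BALBc hyperoxia, the highest in level, lay within the range of the other BALBc libraries or just outside it. The log2 difference was 0.95, with p = 0.000155, the smallest that 8 against 8 libraries allow in a permutation test.

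Dct over Pmel was also separated, from 0.441 to 0.542 in C57 and from 0.625 to 0.836 in BALBc (log2 difference 0.55, exact permutation p = 0.000155). Gpr143 over Pmel ran from 0.00812 to 0.0169 in C57 and from 0.0206 to 0.0323 in BALBc (1.19, exact permutation p = 0.000155). For these 3 genes the strains also did not overlap within normoxia or within hyperoxia (permutation p = 0.0286 each, the smallest possible with 4 against 4). Of the ratios to Pmel of all tested genes, 1.34% separated the strains without overlap, 0.702% as higher in BALBc. Within normoxia 4.11% did so (3.06% as higher) and within hyperoxia 4.11% (0.93% as higher). These shares leave out Gpr143, which was below the filter. A gene that does not move with Pmel takes on the spread of Pmel in such a ratio. Tyrp1, Dct and Gpr143 followed Pmel closely, with r of 0.97, 0.98 and 0.94 once group means were removed. The shares are thus not those of genes that move with Pmel, which were not computed. Leaving out any 1 library kept the log2 difference between 0.89 and 0.97 for Tyrp1, between 0.52 and 0.58 for Dct and between 1.13 and 1.28 for Gpr143.

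**Figure D4:**
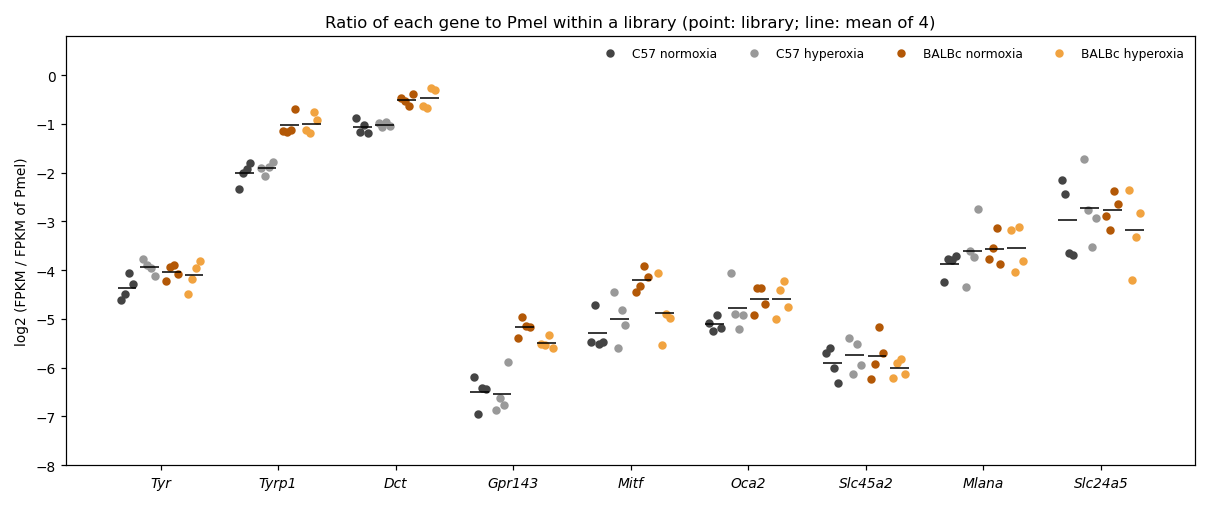
Log2 of each gene's FPKM over that of Pmel in the same library (vertical axis), one point per library in the 4 groups, with the mean of 4 as a line. For Tyrp1, Dct and Gpr143 all 8 BALBc libraries lie above all 8 C57 libraries, whereas for Tyr, Slc45a2, Mlana and Slc24a5 the strains overlap.

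The ratio of Tyr to Pmel overlapped between the strains. Its ratio ran from 0.0411 to 0.0737 in C57 and from 0.0447 to 0.0715 in BALBc, a log2 difference of 0.08 (exact permutation p = 0.542). Mitf over Pmel was higher in BALBc by 0.61 (permutation p = 0.0331), by 1.09 in normoxia without overlap (p = 0.0286) and by 0.12 in hyperoxia (p = 0.771); leaving out 1 library raised the first p to as much as 0.0637. Oca2 differed by 0.35 (permutation p = 0.0601), and Mlana, Slc45a2 and Slc24a5 had p-values of 0.4, 0.723 and 0.732. Between oxygen conditions 0 of 18 ratios reached p = 0.05 in the permutation test, the lowest p being 0.0571.

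A ratio shows unequal change and not which of the genes changed, so other references were tried. Against Dct, Tyrp1 was still higher in BALBc by 0.39 (exact permutation p = 0.000622) and Gpr143 by 0.64 (p = 0.00249), whereas Tyr was lower by a log2 difference of -0.47 (p = 0.00389) and Slc45a2 by -0.61 (p = 0.00575). Against the mean log2 level of the pigment epithelium list, Tyrp1 was higher by 0.65 (permutation p = 0.00761) and Gpr143 by 0.89 (p = 0.00171), Slc45a2 was lower (-0.36, p = 0.0424), and the differences of Dct (0.25, p = 0.125), Mitf (0.31, p = 0.126) and Tyr (-0.22, p = 0.217) had p-values above 0.05. Over both oxygen conditions Tyrp1 and Gpr143 had p under 0.05 against all 3 references. How many of all genes would have p under 0.05 against these references was not computed, so whether this is unusual is not known. Mitf was also above 0 against all 3, at 0.05 against Dct (permutation p = 0.839). Against Dct and against the list the strains overlapped for both Tyrp1 and Gpr143. The difference of Tyrp1 against the list was 0.31 in normoxia (permutation p = 0.343) and 0.99 in hyperoxia (p = 0.0286), and that of Gpr143 was 0.66 (p = 0.0286) and 1.12 (p = 0.0857). Of the pigment epithelium list, Rgr and Rdh5 also had ratios to Pmel without overlap, from 0.299 to 0.603 in C57 and 0.789 to 1.46 in BALBc for Rgr, and from 0.142 to 0.210 and 0.235 to 0.432 for Rdh5, so the members were not alone in this.

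Genes that build and move melanosomes, most of which other cells also use for lysosome-related organelles, were compared as a list of 25 genes, of which 21 were tested. Over both oxygen conditions 5 were higher and 1 was lower in BALBc, 6 of 21 against 29% of all genes, so the list was called about as often as genes in general, with a median difference of 0.04. Myo7a, a myosin that moves melanosomes in the pigment epithelium and is also made by photoreceptors, was far lower in BALBc. It was at 14.4 ± 3.94 and 10.1 ± 1.39 FPKM in C57 normoxia and hyperoxia and at 1.51 ± 0.192 and 1.83 ± 0.413 FPKM in BALBc (SD, n = 4 each), without overlap, as for 5.86% of all tested genes over the 8 against 8 libraries. Its log2 difference was -2.52 (SE 0.12, limma adjusted p = 4.17e-10), opposite in direction to Tyrp1 and Mitf. Its usual partners in melanosome transport were higher in BALBc over both conditions by limma. Rab27a, the small GTPase on the melanosome, was so by 0.74 (SE 0.17, adjusted p = 0.00523). Myrip, the linker between Rab27a and Myo7a, was so by 0.63 (SE 0.15, adjusted p = 0.00618). In hyperoxia the differences were 1.18 for Rab27a (adjusted p = 0.0037) and 0.68 for Myrip (adjusted p = 0.0329). In normoxia neither passed, at 0.30 (adjusted p = 0.511) and 0.57 (adjusted p = 0.112). Mreg, melanoregulin, was higher by 0.58 (SE 0.12, adjusted p = 0.00291). In hyperoxia 4 were higher and 1 lower (22.6% of all genes called) and in normoxia 2 higher and 1 lower (9.08%). Between oxygen conditions Ap3b1 fell in C57 (-0.42, adjusted p = 0.0454) and 0 of the 21 passed in BALBc by limma, with 1 at an unadjusted p under 0.05. A list of 12 other pigment cell transcription factors and signals had 11 genes in the table and 7 tested, and 0 passed between the strains by limma, with 0 at an unadjusted p under 0.05.

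The protein-coding genes outside the list whose levels were most like the mean of the 8 tested members over the 16 libraries were Myrf (r = 0.98), Col8a1 (0.98), Stra6 (0.98), Mfrp (0.97), Tmem98 (0.97), Car12 (0.95), Fap (0.95) and Ptgds (0.95). Stra6, the retinol transporter, is also on the pigment epithelium list. Their median levels ran from 1 FPKM for Fap to 52.1 FPKM for Ptgds. These values describe libraries that share depth and dissection.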

How the data were processed

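Retinal total RNA was isolated with TRIzol and made into libraries with NEBNext Ultra II reagents, per the labels' protocols. The tools were HISAT2 2.0.5 and featureCounts 1.5.0-p3 and the build GRCm38 (mm10), per the submitters' processing notes; the strand setting is not given in the sources used here. The authors deposited FPKM values for 54532 genes in 16 libraries. Gene IDs of 54409 of them were found in release 21 of GENCODE's mouse annotation, and 27 symbols that had become dates were restored. Reads were recovered as whole multiples of each library's FPKM step (tolerance 0.01 reads, values up to 1000 reads); between 97.1% and 97.5% of values were whole.

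The 14953 genes that reached 1 FPKM in 4 or more libraries were fitted as log2(FPKM + 0.5) with limma 3.58.1 in R 4.3.3, with 4 group means, empirical Bayes moderation and a mean-variance trend. The 6 comparisons were BALBc against C57 over both oxygen conditions and within each, hyperoxia against normoxia in each strain, and the difference of those responses. Tests were two-sided, with Benjamini-Hochberg adjustment over all tested genes and a threshold of 0.05. The added 0.5 FPKM makes log2 differences of low genes smaller than ratios of means. Members below the filter were tested by exact permutation over libraries. The fit was tested on simulated data. Alternatives were other pseudocounts, no filter, quantile and TPM scaling, limma voom on recovered reads, only the groups compared, a replicate block, a pigment epithelium covariate and leaving out each library.

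The members and gene lists (melanosome biogenesis and traffic, pigment cell factors and signalling, and markers of pigment epithelium, neural crest, ciliary, fibroblast, lens, rod and bipolar cells) were chosen with earlier results of these data known. One neural crest marker is not reported here. Named genes were all members, up to 4 called genes per list with the largest change, and the 8 protein-coding genes closest to the members' mean; not every gene the rule names is described. Promoter sequences are RefSeq windows of GRCm38.p6. Permutation tests used scipy 1.17.1 and tables pandas 2.3.3 with numpy 2.4.6, under Python 3.11.15; matplotlib 3.10.9 drew the plots.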

Additional observations from a re-analysis of the deposited data

Results flagged for a closer look

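In all, 76 groups of 4 values were examined (FPKM of each of the 10 genes and ratios to Pmel). Of these, 3 held a library whose gap to the nearest other exceeded the 95% critical share of the range (0.829). Chance gives about 1 such group in 20, a larger share than 3 in 76, so the number flagged is not unusual. The ratio of Tyrp1 to Pmel was 0.620 in the highest BALBc normoxia library, against 0.447 to 0.459 in the other 3. Slc45a2 was at 0.318 FPKM in the lowest BALBc normoxia library, against 0.486 to 0.505 FPKM in the other 3. The ratio of Mitf to Pmel was 0.0382 in the highest C57 normoxia library, against 0.0218 to 0.0225 in the other 3.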

How the results depend on the processing

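Over both oxygen conditions, 2 tested members passed in the fit as reported. With the pigment epithelium covariate, whose genes also differed between the strains, 1 passed (Tyr, reversed to -0.36). Without BALBc hyperoxia libraries 2 and 3 the number was 0, and without C57 normoxia libraries 1 and 2 it was 1. Leaving out 1 library gave 2 to 4, the 4 without BALBc hyperoxia replicate 1. Tyrp1 (adjusted p up to 0.0323) and Mitf (up to 0.0199) passed in all 16 of these fits. In normoxia the covariate gave 1 (Pmel, -0.78), and leaving out 1 library gave 0 in every fit. In hyperoxia the number moved from 2 to 0 with no filter, to 1 with quantile normalization, with only the groups compared and with the covariate, and to 0 without BALBc hyperoxia libraries 2 and 3. There, leaving out 1 library gave 0 to 5: 0 without C57 hyperoxia replicate 1 or 3 or BALBc hyperoxia replicate 2 or 3, and 5 without BALBc hyperoxia replicate 1. For the oxygen comparisons it was 0 in every fit. Gpr143 over both conditions kept p between 0.000622 and 0.00404 in exact permutation tests without 1 library (log2 difference 0.59 to 0.78), and Slc45a2 ranged from 0.04 to 0.23. Within normoxia the ranges were 0.38 to 0.62 and -0.10 to 0.08, and within hyperoxia 0.68 to 1.11 and 0.11 to 0.54. The ratio of Tyr reversed to -0.47 with Dct as reference. The causes were not tested. In fits other than those without 1 library, counts over all genes ranged from 2965 to 4543 (main 4342) over both conditions. They were 738 to 1696 (1358) in normoxia and 1948 to 3654 (3380) in hyperoxia. For hyperoxia they were 1 to 136 (50) in C57 and 3 to 135 (24) in BALBc. Leaving out 1 library gave, in the same order, 3612 to 4975, 895 to 1496, 2311 to 4247, 0 to 86 and 1 to 281.

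Groups share replicate numbers, but the labels give them no meaning. Deviations of same-numbered libraries had a median r of 0.02 over 24 pairs (from -0.50 to 0.40, 6 over 0.1). Over 72 pairs with different numbers the median was -0.0072 (18 over 0.1). No pairing by number was thus seen, though this check cannot exclude one. With a replicate block 3 members passed over both conditions (Dct adjusted p = 0.0440), 2 in hyperoxia and 0 otherwise, and hyperoxia in C57 had 1 call of all genes in place of 50. Few recovered reads limit Gpr143, Mlana and Slc45a2.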
